A study of Mus musculus with 6 samples.

Results

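The reelin pathway and the large lipoprotein receptors were followed as 7 genes, chosen by symbol from the 55341 genes listed for each library: Reln, Vldlr, Lrp8, Dab1, Lrp1, Lrp1b and Sorl1. All 7 were among the 16729 genes with enough reads to test. The libraries came from cerebellar granule neurons (CGNs) of early postnatal CD-1 IGS mice (both sexes, pooled litters) isolated on a Percoll gradient and given cytosine arabinoside at DIV2 (days in vitro) to block the division of non-neuronal cells. Per the labels, 3 cultures received the vehicle DMSO and 3 received GSK-126, a small molecule inhibitor of EZH2, the enzyme that trimethylates histone H3 at lysine 27 (H3K27me3). The compound was added at DIV3 and, per the study's methods, RNA was collected at DIV5. The dose at DIV3 is not given in the sources used here, and the labels name cerebellar tissue where the methods describe cultures. The question was how the RNA of these genes differed when EZH2 was inhibited from DIV3 on.

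Reelin is a large secreted glycoprotein. In the developing cerebellum it is made by granule cells and is known for guiding the placement of Purkinje cells. It binds the lipoprotein receptors VLDLR and LRP8 (also called ApoER2), whose short intracellular tails carry an NPxY motif that docks the adaptor DAB1. Kinases of the SRC family, FYN above all, then phosphorylate DAB1, which passes the signal to CRK proteins, phosphoinositide 3-kinase and the cytoskeleton. LRP1 and LRP1B are giant endocytic receptors of the same family. SORL1 joins lipoprotein receptor repeats to a sortilin domain and sorts APP, the amyloid precursor protein, and other cargo between endosomes and the Golgi.

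With GSK-126, 5 of the 7 genes were called lower and none was called higher. The genes were chosen with earlier results of these data known, so this count is a description and not a test of the group. Levels are given in CPM, counts scaled to library size with TMM factors, and errors after ± are SDs over 3 libraries. SE is the standard error of a log2 fold change. Both reelin receptors, Vldlr and Lrp8, their adaptor Dab1, and the receptors Lrp1b and Sorl1 fell by between 21.1% (Vldlr) and 37.5% (Lrp1b). Reln itself and Lrp1 did not pass the test, with log2 fold changes of -0.21 and 0.031. These calls come from edgeR's quasi-likelihood test with the libraries paired by replicate number, at a Benjamini-Hochberg adjusted p under 0.05 over all 16729 genes. In the same fit 5.09% of all genes were called lower and 3.35% higher. Among the 9511 genes with a mean level at or above that of Lrp1b, the lowest of the 7, 8.04% were called lower and 5.08% higher. All 7 genes have long transcripts, and of the 2743 genes whose merged exons are at least as long as those of Dab1, the shortest of the 7, 12.5% were called lower and 2.55% higher, with a median log2 fold change of -0.095, where the median over all tested genes was -0.0056. The part of transcript length in the result was not tested. The pairing carried the calls: in the fit without it 0 of the 7 genes, and 0 of all genes, passed with edgeR, with 3 of the 7 (Dab1, Lrp1b and Sorl1) and 665 of all genes (3.98%) at an unadjusted p under 0.05.

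**Figure D1:**
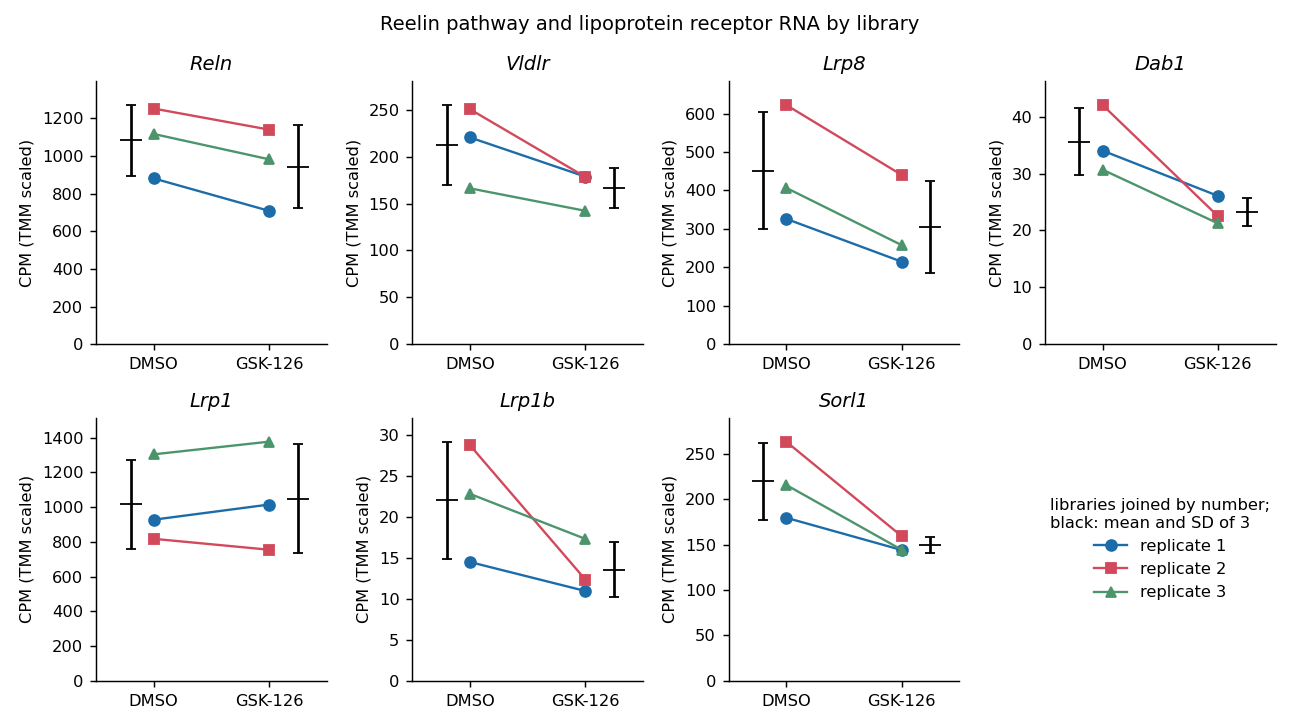
Level of each gene in CPM (counts scaled to library size with TMM factors, y axis from 0) in the 3 DMSO and 3 GSK-126 libraries. Coloured lines join libraries with the same replicate number, and black marks give the mean and SD of 3 libraries. The lines of Reln, Vldlr, Lrp8, Dab1, Lrp1b and Sorl1 go down in all 3 pairs, while those of Lrp1 go up in 2 pairs and down in 1.

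The libraries held between 7407189 and 13092763 counts on genes (8539663, 11280632 and 11594643 for DMSO and 13092763, 9191209 and 7407189 for GSK-126, replicates 1 to 3), so that even the rarest of the 7 genes, Lrp1b, had 115 to 309 counts per library. Libraries with the same number resembled each other, with correlations of 0.561, 0.634 and 0.487 between their deviations from the group means across genes. Replicate 2 of both groups stood apart from the other libraries on the main principal component (46.4% of the variance). The summed level of 7 astroglial markers was 2382 CPM in DMSO replicate 2 and 2346 CPM in GSK-126 replicate 2 against 4206 to 7952 CPM in the other libraries, and that of 10 granule neuron markers was highest in replicate 2 of each group (6672 and 5232 CPM). Without pair 2, 2 of the 7 genes, Lrp8 and Sorl1, were called lower, where 496 of all genes were called lower and 337 higher.

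The genes lie on 6 chromosomes of GRCm38, and the promoters of 6 of them were matched in RefSeq (GRCm38.p6), all but Lrp1b. Promoters with H3K27me3 are often rich in CpG dinucleotides, though the study also found the mark in gene bodies and distal intergenic regions. The 250 bases before the start site are shown for the ligand and for Vldlr, a receptor with few CpGs there that fell. They are also shown for Sorl1, which fell and has many, and for Lrp1, which did not pass. These 4 start sites lie within 3 bases of the 5′ end of the gene in GENCODE M21. RefSeq lists 2 start sites for Vldlr, Sorl1 and Dab1 and 3 for Lrp8. The site nearest that end was used for each gene, and CpGs at the other sites were not counted. Each sequence is written 5′ to 3′ on the gene's strand with CpG in capitals.
Reln, chr5:22344706-22344955, minus strand: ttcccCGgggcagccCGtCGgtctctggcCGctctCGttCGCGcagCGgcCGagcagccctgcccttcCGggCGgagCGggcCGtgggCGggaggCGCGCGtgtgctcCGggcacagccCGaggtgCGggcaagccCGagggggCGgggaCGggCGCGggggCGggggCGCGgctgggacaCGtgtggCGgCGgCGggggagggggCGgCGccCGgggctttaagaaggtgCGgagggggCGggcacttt
Vldlr, chr19:27216234-27216483, plus strand: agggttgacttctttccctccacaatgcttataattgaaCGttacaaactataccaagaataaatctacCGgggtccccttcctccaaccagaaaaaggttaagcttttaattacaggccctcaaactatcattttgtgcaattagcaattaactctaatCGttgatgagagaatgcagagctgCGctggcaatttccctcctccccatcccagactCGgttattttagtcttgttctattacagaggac
Sorl1, chr9:42124298-42124547, minus strand: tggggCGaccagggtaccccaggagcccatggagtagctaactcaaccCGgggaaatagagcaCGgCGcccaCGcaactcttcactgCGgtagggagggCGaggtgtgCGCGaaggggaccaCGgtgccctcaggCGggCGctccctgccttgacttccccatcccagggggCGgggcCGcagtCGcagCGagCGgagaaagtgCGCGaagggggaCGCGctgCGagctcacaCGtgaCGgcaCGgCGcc
Lrp1, chr10:127621149-127621398, minus strand: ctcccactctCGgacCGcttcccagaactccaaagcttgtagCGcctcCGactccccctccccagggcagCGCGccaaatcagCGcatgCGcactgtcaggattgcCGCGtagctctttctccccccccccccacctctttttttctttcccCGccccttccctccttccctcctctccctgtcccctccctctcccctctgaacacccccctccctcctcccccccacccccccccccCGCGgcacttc
The Reln window holds 37 CpGs and is 80% G and C, and only 2.2% of the 32851 promoters in the table hold as many CpGs. Sorl1 has 26 CpGs, a number that 9.59% of promoters reach, and Lrp1 has 13 (31.5%). The Vldlr window, by contrast, holds 5 CpGs at 41.6% G and C, where 55.6% of promoters hold as many. Lrp8 (18 CpGs) and Dab1 (10 CpGs) lie between, counted before RefSeq start sites 624 and 141 bases from the GENCODE 5′ end. The 4 genes with a promoter in the table that fell ranged from 5 to 26 CpGs. Of those that did not pass, Lrp1, at 13, lay within that range and Reln, at 37, lay above it. The part of CpG content in the changes was not tested. A search on both strands for the sterol regulatory element TCACNCCAC and for CAGCAGG, a core of ZIC binding sites, found neither in the windows of the 6 genes. Of all windows of this length, 1.05% and 8.44% hold them.

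**Figure D2:**
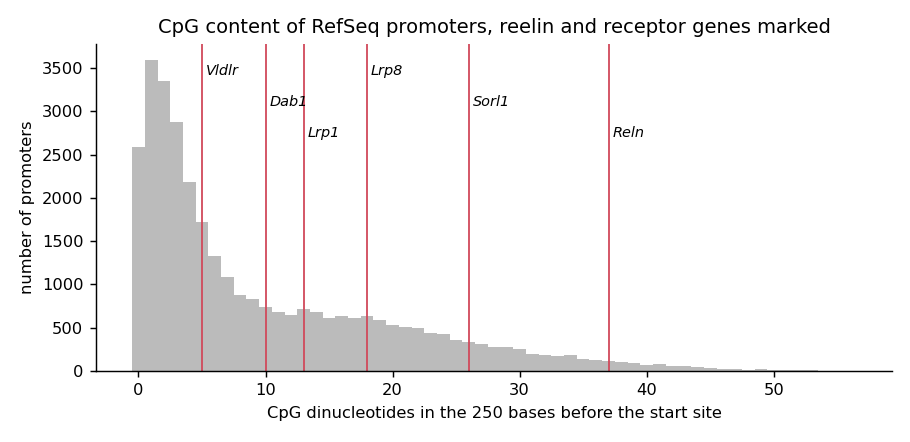
Number of RefSeq promoters (y axis) by the count of CpG dinucleotides in the 250 bases before the start site (x axis), with lines at the counts of 6 of the genes. Vldlr sits at 5 near the median of 6, Sorl1 at 26 and Reln at 37 in the far tail.

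Reln, the ligand (ENSMUSG00000042453.14, chromosome 5, 21884454 to 22344702, minus strand), was at 881, 1252 and 1117 CPM in DMSO replicates 1, 2 and 3 and at 709, 1140 and 982 CPM in the GSK-126 replicates. The groups overlapped, with replicate 1 the lowest library of each, and each GSK-126 library lay below its DMSO partner, as it did for 6 of the 7 genes and for 22.8% of all genes tested. The DMSO mean was 1083 ± 188 CPM and the GSK-126 mean 944 ± 218 CPM (n = 3 libraries per group). The log2 fold change of Reln was -0.21 (SE 0.068, 95% interval -0.35 to -0.070), with an adjusted p of 0.060 from edgeR's paired fit and 0.0514 from DESeq2's, both with Benjamini-Hochberg adjustment. The interval is an unadjusted one for this gene alone. Of the alternatives run, Reln was called in 1, the paired fit that kept all genes with low counts (-0.20 on the log2 scale, edgeR, Benjamini-Hochberg adjusted p = 0.0248). Its exons share 246 bp with Gm10475 on the opposite strand, and the strand setting of the counting is not given in the sources used here, so the reads of these 2 genes in that stretch cannot be told apart.

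The pattern of Reln across the 6 libraries was compared with 12034 tested genes with a mean log2 CPM over 3, as a description. The closest by Pearson's r of log2 CPM were 4833422C13Rik (0.997), Prkacb (0.994), Srgap3 (0.994), Hivep3 (0.992) and Gm10475 (0.992). Prkacb encodes a catalytic subunit of protein kinase A, and Srgap3 a GTPase activating protein of the SLIT-ROBO pathway. These 6 points share pairs and depth and are not independent. Gm10475 is the gene that overlaps Reln. Of the other 6 genes, Lrp8 came closest to Reln (r = 0.899), though it ranked only 618th among the 12034 genes. Vldlr (0.22) and Dab1 (0.29) had low correlations with Reln over the 6 libraries, though Reln, Vldlr and Dab1 were each lower with GSK-126 in all 3 pairs.

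The very low density lipoprotein receptor gene, Vldlr (ENSMUSG00000024924.14, chromosome 19, 27216484 to 27254231, plus strand), was at 221, 251 and 166 CPM in the DMSO libraries and at 179, 178 and 142 CPM in the GSK-126 libraries, replicates 1 to 3. The DMSO library of replicate 3 lay below GSK-126 replicates 1 and 2, so the groups overlapped. The mean went from 212 ± 42.7 to 166 ± 21.0 CPM. The log2 fold change of Vldlr was -0.34 (SE 0.077), which passed in edgeR (Benjamini-Hochberg adjusted p = 0.00692). Without pair 2 it was -0.26, with an adjusted p of 0.0551 (edgeR, Benjamini-Hochberg), and no longer passed.

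Lrp8, the other reelin receptor (ENSMUSG00000028613.14, chromosome 4, 107802261 to 107876840, plus strand), was at 326, 622 and 407 CPM with DMSO and at 215, 440 and 258 CPM with GSK-126, replicates 1 to 3. Replicate 2 was the highest library of each group, and its GSK-126 library exceeded 2 of the 3 DMSO libraries. Within pairs the drop was even, with log2 ratios of -0.60, -0.50 and -0.66. Lrp8 had the smallest p of the 7 genes, with a log2 fold change of -0.59 (SE 0.070), which passed in edgeR (Benjamini-Hochberg adjusted p = 1.64e-05). It stayed past the threshold in the paired fits without pair 1, 2 or 3, between -0.63 and -0.55. The SD over the DMSO libraries, 153 CPM around a mean of 452 CPM, was larger than the difference of the means (the GSK-126 mean was 304 ± 120 CPM), so only the comparison within pairs resolved it. Per kilobase of exon, the ratio of Reln to Lrp8 RNA was higher with GSK-126 in every pair, at 1.20, 0.891 and 1.22 with DMSO and 1.46, 1.15 and 1.69 with GSK-126. The ratio of Reln to Vldlr was not, at 1.69, 2.12 and 2.85 with DMSO and 1.68, 2.71 and 2.93 with GSK-126.

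Dab1, the adaptor that carries the signal into the cell (ENSMUSG00000028519.16, chromosome 4, 103619359 to 104744844, plus strand), was at 34.0, 42.1 and 30.7 CPM with DMSO and at 26.1, 22.5 and 21.2 CPM with GSK-126, replicates 1 to 3. Every GSK-126 library lay below every DMSO library, which held for 4.72% of all genes tested. The mean went from 35.6 ± 5.84 to 23.3 ± 2.51 CPM. The log2 fold change of Dab1 was -0.61 (SE 0.13), which passed in edgeR (Benjamini-Hochberg adjusted p = 0.00521), and an exact permutation test of 3 against 3 libraries, two-sided, gave p = 0.1, the smallest it can give. Without pair 2, in which the log2 ratio was -0.90 against -0.38 and -0.53 in pairs 1 and 3, the value was -0.45 with an adjusted p of 0.0865 (edgeR, Benjamini-Hochberg). The call of Dab1 was lost there. For the other genes the exact permutation test gave p = 0.1 (Sorl1), 0.2 (Lrp1b), 0.3 (Vldlr and Lrp8), 0.6 (Reln) and 0.9 (Lrp1).

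Sorl1, the sorting receptor (ENSMUSG00000049313.8, chromosome 9, 41964720 to 42124297, minus strand), was at 180, 263 and 216 CPM with DMSO and at 144, 159 and 144 CPM with GSK-126, replicates 1 to 3. As for Dab1, the groups did not overlap, and the GSK-126 libraries differed little among themselves (149 ± 8.75 CPM) where the DMSO libraries were spread (219 ± 42.0 CPM). The log2 fold change of Sorl1 was -0.54 (SE 0.082), which passed in edgeR (Benjamini-Hochberg adjusted p = 2.20e-04). It was also called lower in the 3 paired fits that left out 1 pair each, between -0.64 and -0.44. Of its exons, 185 bp overlap Gm16214 on the opposite strand.

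Lrp1b (ENSMUSG00000049252.17, chromosome 2, 40595246 to 42653624, minus strand), a receptor that spans 2058 kb of the genome, was at 14.5, 28.8 and 22.9 CPM with DMSO and at 11.0, 12.4 and 17.4 CPM with GSK-126, replicates 1 to 3. The groups overlapped, and the drop was uneven, with log2 ratios of -0.40, -1.22 and -0.40 in pairs 1, 2 and 3. The log2 fold change of Lrp1b was -0.68 (SE 0.17), which passed in edgeR (Benjamini-Hochberg adjusted p = 0.0161). Its change and its SE were the largest of the 7. Without pair 2 it was -0.40 with an adjusted p of 0.245 (edgeR, Benjamini-Hochberg), so that its call rested on that pair. Lrp1b shares 99 bp of exon with Gm27348 on its own strand.

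Lrp1 (ENSMUSG00000040249.15, chromosome 10, 127538161 to 127621148, minus strand), the broadly expressed endocytic receptor, was at 928, 818 and 1304 CPM with DMSO and at 1015, 755 and 1377 CPM with GSK-126, replicates 1 to 3. The libraries of replicate 3 were the highest in both groups and those of replicate 2 the lowest, and the difference within pairs was small in either direction. Its log2 fold change was 0.031 (SE 0.070, 95% interval -0.11 to 0.18, edgeR's paired fit, Benjamini-Hochberg adjusted p = 0.849). That interval leaves out drops of the size fitted for Vldlr, Lrp8, Dab1, Lrp1b and Sorl1. Without the pairing the value for Lrp1 was 0.045 with an SE of 0.27, so this exclusion rests on the pairing. The ratio of Lrp1 to Lrp1b RNA per kilobase of exon was higher with GSK-126 in all 3 pairs, at 85.7, 38.1 and 76.6 with DMSO and 124, 81.8 and 106 with GSK-126.

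**Figure D3:**
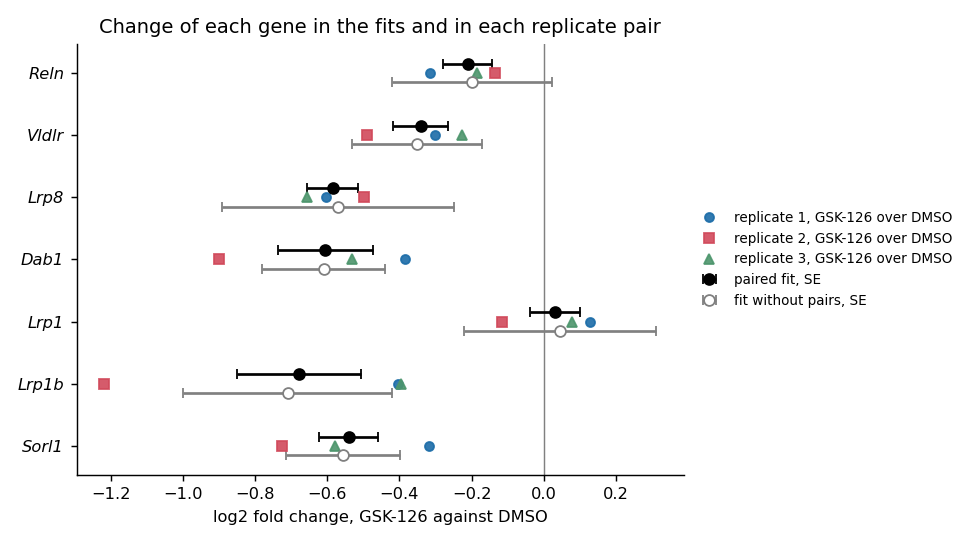
Log2 fold change of GSK-126 against DMSO (x axis) for each gene. Black points are the paired fit and open grey points the fit without pairs, both with standard errors, and coloured symbols are the log2 ratios of the 3 pairs. Lrp8 shows near-equal pairs (-0.60, -0.50 and -0.66) and a wide grey bar, while pair 2 of Lrp1b (-1.22) lies far from pairs 1 and 3 (both -0.40).

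Per kilobase of merged exon, the levels in DMSO fell into steps. Lrp1 (57.4 ± 14.4 CPM per kb), Reln (45.6 ± 7.92) and Lrp8 (43.0 ± 14.6) formed the upper group, and their ranges over the 3 libraries overlapped. Vldlr (21.1 ± 4.25) and Sorl1 (19.4 ± 3.71) followed, again with overlapping ranges and below every library of the upper group. Dab1 (4.50 ± 0.739) and Lrp1b (0.928 ± 0.302) were lower still, each separated from its neighbours. With GSK-126 the order of the means was the same, with Lrp1 at 59.2 ± 17.6 and Lrp1b at 0.571 ± 0.141 CPM per kb, but the ranges of Lrp8 (20.4 to 41.9) and Reln (29.9 to 48.0) still overlapped, that of Lrp8 no longer reached that of Lrp1 (42.6 to 77.7), and the ranges of Vldlr (14.1 to 17.8) and Sorl1 (12.7 to 14.1) no longer overlapped.

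**Figure D4:**
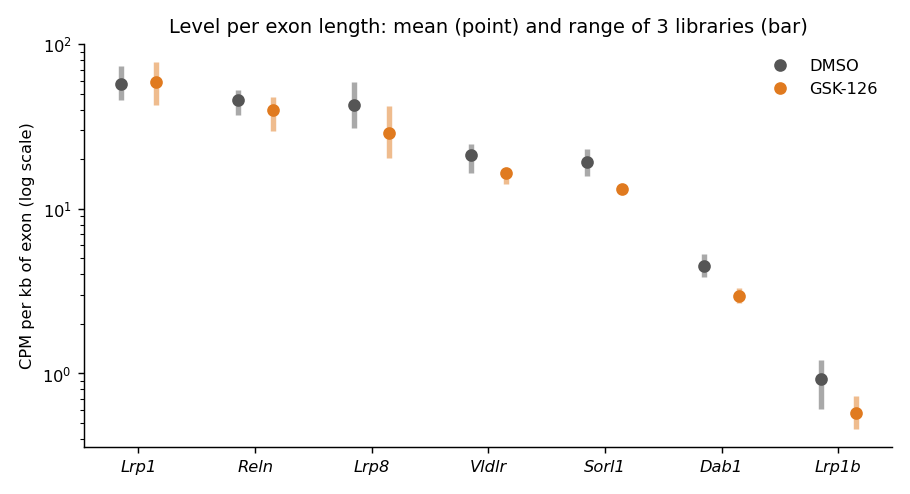
Level of each gene in CPM per kilobase of merged exon (y axis, log scale) with DMSO (grey) and GSK-126 (orange). Points are means and bars the range of 3 libraries. Lrp1, Reln and Lrp8 lie above 20 and Lrp1b lies near or below 1.

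The receptors and Dab1 are best known in the cerebellum from Purkinje cells, so the markers of that cell and of others were read in the same libraries. Of 9 Purkinje cell markers, Skor2 was at 0 in every library, Ppp1r17 had at most 1 count, and Pcp2 averaged 2.34 CPM in DMSO and 1.08 CPM in GSK-126 libraries. Pcp4 and Car8 averaged under 2 CPM in both groups. Calb1 lay between 7.92 and 12.2 CPM in DMSO libraries. Its GSK-126 mean of 14.2 CPM was raised by replicate 2, at 22.3 CPM, while replicates 1 and 3 lay within the DMSO range. Foxp2 averaged 15.9 CPM in DMSO and 19.3 CPM in GSK-126 libraries. Itpr1 (43.2 and 42.6 CPM) and Rora (151 and 130 CPM), which other neurons also express, lay above Dab1. Summed, the 9 genes ranged from 210 to 236 CPM with DMSO and from 206 to 216 CPM with GSK-126, most of it from Rora, and 0 of the 7 that were tested were called in either direction with edgeR (4 had a log2 fold change above 0 and 3 below), with 2 (Pcp2 and Rora) at an unadjusted p under 0.05. Of 10 granule neuron markers, 7 were called lower with GSK-126 and 0 higher. Their log2 fold changes ran from -0.31 (Zic1) to -1.19 (Gabra6), with Rbfox3 at -0.59. The 3 markers that did not pass were Neurod2 (0.079), Pax6 (-0.070) and Zic2 (-0.20). Over all genes 5.09% were called lower and 3.35% higher. The summed level of the granule neuron markers ranged from 4066 to 6672 CPM with DMSO and from 3214 to 5232 CPM with GSK-126. Of 7 markers of GABAergic interneurons 4 were lower (348 to 415 CPM summed with DMSO and 253 to 346 CPM with GSK-126). Of 7 astroglial markers 2 were higher, of 5 microglial markers 1, of 6 tested vascular and meningeal markers 2, of 6 oligodendrocyte markers 1 and of 5 tested progenitor markers 1, and none of these was called lower. A single call in lists this short is not a result about the list. Of the pair of unipolar brush cell markers 1 was lower. In bulk RNA, fewer cells of a type and less RNA per cell cannot be told apart, and the part of these markers in the fall of the 5 genes was not tested.

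The partners of these genes were read from 6 lists, with 103 genes tested. In all, 9 were called higher (8.74%) and 8 lower (7.77%), against 3.35% and 5.09% of all genes and against 5.08% and 8.04% of the 9511 genes at or above the level of Lrp1b. The share called lower was thus near that of the better expressed genes, and the median log2 fold change was -0.019. Without pair 2 these counts were 7 and 7, and in the edgeR fit without pairing 0 were called, with 4 at an unadjusted p under 0.05. The exons of Dab2ip, Thbs1, Nrp1, Dab2, Gga2, Numbl, Sort1, Lrp3 and App overlap other genes in part, so the reads there cannot be assigned with certainty.

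Among 34 tested genes of reelin signalling inside the cell, 3 fell and 0 rose with edgeR, and the median was -0.048. Dab2ip, a RAS GTPase activating protein that binds DAB1, went from 177 ± 62.4 to 123 ± 24.8 CPM, or by -0.49 on the log2 scale (edgeR, Benjamini-Hochberg adjusted p = 7.17e-04). Socs7, an adaptor of the ubiquitin ligase that removes phosphorylated DAB1, changed by -0.34 on the log2 scale (edgeR, Benjamini-Hochberg adjusted p = 0.00675). The kinase and adaptor genes that act directly on DAB1 did not pass: Fyn had -0.065, Src -0.036, Crk -0.025 and Crkl -0.025, each with a standard error between 0.073 and 0.095. Thus Dab1 was called lower while Fyn was at 166, 172 and 154 CPM with DMSO and 144, 178 and 150 CPM with GSK-126.

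Of 14 genes for proteases of reelin and for its co-receptors, 3 rose and 0 fell. Thbs1, a thrombospondin that also binds the reelin receptors, had a log2 fold change of 0.50 (SE 0.087), which passed in edgeR (Benjamini-Hochberg adjusted p = 8.02e-04). Nrp1, which pairs with VLDLR at the membrane, and Itgb1, the β1 integrin, rose by 0.41 and 0.29 on the log2 scale (edgeR, Benjamini-Hochberg adjusted p = 0.0057 and 0.010). Nrp1 and Itgb1 were lowest in replicate 2 of each group, as were the summed astroglial markers, while Thbs1 was lowest in replicate 1 of each group. The protease gene Adamts3, the main reelin-cleaving enzyme, averaged 6.36 CPM in DMSO and 4.12 CPM in GSK-126 libraries. It did not pass in the paired fit (edgeR, Benjamini-Hochberg adjusted p = 0.166). Every GSK-126 library of Adamts3 lay below every DMSO library, which held for 4.72% of all genes tested. The groups of Efnb2 (-0.25 on the log2 scale) and Pcsk5 (0.49) did not overlap either, and neither gene passed.

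Among 14 tested genes for other receptors of the family and for sortilins, the median log2 fold change was -0.0053. The abundant members Sort1, a sorting receptor, Lrp3 and Lrp6, a WNT co-receptor, had -0.0067, -0.098 and -0.11 on the log2 scale and did not pass.

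Of 9 tested genes for lipoprotein ligands, chaperones and turnover, 3 rose and 1 fell. Mylip, the ubiquitin ligase that marks VLDLR and LRP8 for degradation, was at 19.6, 13.4 and 22.8 CPM with DMSO and at 37.5, 19.4 and 31.1 CPM with GSK-126, a log2 fold change of 0.64 (SE 0.14), which passed in edgeR (Benjamini-Hochberg adjusted p = 0.00568). Lpl, the lipoprotein lipase, and Apoe, the main apolipoprotein of the brain, rose by 0.45 and 0.34 on the log2 scale (edgeR, Benjamini-Hochberg adjusted p = 0.00171 and 0.00777). Apoe and the apolipoprotein gene Apod, which fell by 0.42 (edgeR, Benjamini-Hochberg adjusted p = 0.00184), were both lowest in replicate 2 of each group, as were the summed astroglial markers. For Apoe those libraries were at 654 and 989 CPM, and the others between 1344 and 2440 CPM. Mylip was lowest in replicate 2 of each group as well. Lpl was lowest in replicate 1 with DMSO and in replicate 2 with GSK-126.

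Among 21 genes for adaptors of NPxY motifs and for receptor trafficking, 2 rose and 3 fell. Numbl, an endocytic adaptor, Dlg4, the postsynaptic scaffold that binds LRP8, and Mapk8ip2, a JNK scaffold that also binds LRP8, changed by -0.43, -0.42 and -0.32 on the log2 scale (edgeR, Benjamini-Hochberg adjusted p = 7.36e-04, 7.86e-04 and 0.00882). Dab2, a relative of Dab1, and Gga2, a sorting adaptor, rose by 0.31 and 0.33 on the log2 scale (edgeR, Benjamini-Hochberg adjusted p = 0.0285 and 0.0297). Dab2 was lowest in replicate 2 of each group, at 62.0 and 72.4 CPM, where the other libraries had 110 to 222 CPM. Gga2 was also lowest in replicate 2 of each group, at 49.5 and 66.0 CPM. Of 11 genes for APP and its secretases 1 was called, Aplp2, a relative of APP, which fell by 0.32 on the log2 scale (edgeR, Benjamini-Hochberg adjusted p = 0.00831). App itself, a cargo of SORL1, averaged 1380 CPM in DMSO libraries, with -0.13 on the log2 scale (edgeR, Benjamini-Hochberg adjusted p = 0.258), and Aplp1 had -0.019. Neither passed.

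**Figure D5:**
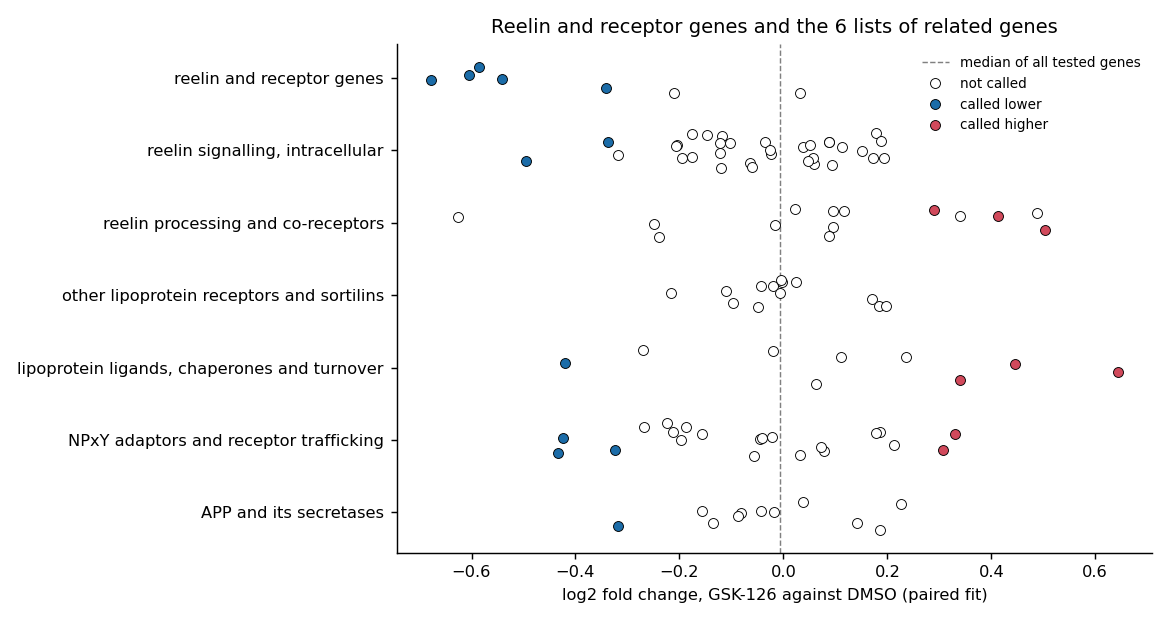
Log2 fold change of GSK-126 against DMSO in the paired fit (x axis) for the 7 genes and for the tested genes of each list, 1 point per gene, with height within a row set at random to separate points. Blue points were called lower and red points higher, and 2 list genes are not drawn. The blue points of the 7 genes lie between -0.68 (Lrp1b) and -0.34 (Vldlr).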

How the data were processed

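Poly-A enriched RNA from 3 CGN cultures per group was sequenced. Per the labels and the study's methods, the authors trimmed reads with Trimmomatic 0.38, aligned them to GRCm38 (mm10) with STAR 2.7.2b and deposited raw counts of reads on exons per gene, made with HTSeq. Per the study's methods the annotation was a GENCODE file for GRCm38.p4. Its release number and the strand setting are not given in the sources used here. The 55341 symbols are identical to those of GENCODE M21, which here gave coordinates and exon lengths. Lines naming no gene (58.7% to 60.7% of the reads listed) were left out.

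The deposited counts were tested in R 4.3.3 with edgeR 4.0.16 (filterByExpr, TMM, quasi-likelihood test, replicate number as a block, Benjamini-Hochberg adjustment over all tested genes). Standard errors are the log2 fold change divided by the root of F. DESeq2 1.42.0 was an alternative, as were other scalings and filters, the fit without the block, an adjusted p under 0.01, and leaving out pairs or libraries. CPM is scaled by TMM. The libraries were paired by the replicate number in the sample titles. Neither the titles nor the study's methods say that libraries with the same number came from the same litters. Deviations from the group means correlated by 0.561, 0.634 and 0.487 within numbers and by 0.00638 or less between them. Since deviations within a group sum to 0, the low values between numbers follow in part from the high ones within them. Replicates are CGNs of pooled litters. The genes, the lists and the paired design were chosen with earlier results of these data known. Named are the 7 genes, up to 4 called genes per list and direction (with fewer than 3 calls, its most abundant genes), and the 5 genes most like Reln; Fyn, Src, Crk, Crkl and Adamts3 were added after their values were seen. The fits were tested on simulated data. For 2 genes of the lists no values are reported here, though they enter the counts.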

Additional observations from a re-analysis of the deposited data

How the results depend on the processing

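The direction of the 5 falling genes (Vldlr, Lrp8, Dab1, Lrp1b, Sorl1) was the same under every alternative run, but their calls depended on the pairing. Without the replicate block edgeR gave -0.35, -0.57, -0.61, -0.71 and -0.56 (all with adjusted p = 0.953), DESeq2 gave -0.35, -0.56, -0.60, -0.70 and -0.55, and 0 of the 5 were called by either. Over all genes, 561 were called higher and 851 lower. Without the block these were 0 and 0 with edgeR (296 and 369 at an unadjusted p under 0.05) and 20 and 1 with DESeq2, and for the related lists 0 and 0 with both, against 9 and 8. DESeq2 with the block called 372 higher and 627 lower, with 5 of the 7 genes lower. An adjusted p under 0.01 left 242 and 474, and ended the call of Lrp1b (-0.68, adjusted p = 0.0161). Scaling by total counts turned the split of all genes to 714 higher and 707 lower, and by upper quartile to 727 and 698, moving the median of all genes from -0.0056 to 0.028 in both. Keeping all genes raised the calls among the 7 from 5 to 6, with Reln at -0.20.

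Leaving out a pair (with the block) or a library (without it) gave these log2 ranges: Reln -0.25 to -0.15 and -0.34 to -0.015, Vldlr -0.40 to -0.26 and -0.50 to -0.21, Lrp8 -0.63 to -0.55 and -0.92 to -0.27, Dab1 -0.71 to -0.45 and -0.71 to -0.47, Lrp1 -0.0031 to 0.11 and -0.20 to 0.27, Lrp1b -0.82 to -0.40 and -0.92 to -0.47, and Sorl1 -0.64 to -0.44 and -0.67 to -0.40. Lrp1, never called, was negative without pair 1 and, with no block, without DMSO library 1 or 2 or GSK-126 library 3. With a pair left out, 2 to 5 of the 7 genes were called lower, 337 to 558 of all genes higher and 496 to 719 lower, and 5 to 8 of the related genes in each direction. The lowest of each was without pair 2, except for the related genes (without pair 1). With 1 library left out and no block, the count was 0 throughout. The causes were not tested. With 3 libraries per group no permutation test can pass 0.05.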
